A study of Mus musculus with 8 samples.

Results

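The 10 genes described here are rapidly induced and encode transcription factors of the EGR, AP-1 and NR4A families or, for *Ier2*, a small nuclear protein. They are *Egr1*, *Egr2*, *Egr3*, *Fos*, *Fosb*, *Jun*, *Junb*, *Atf3*, *Ier2* and *Nr4a1*. They were found by matching the Ensembl gene IDs to symbols of the mouse annotation GRCm38, which gave all 10 of the 48795 genes quantified. Polyadenylated RNA was measured in peritoneal macrophages (pMacs) recovered by peritoneal lavage from 4 WT (C57BL/6) and 4 CD1d-KO mice, 1 library per mouse, with replicate numbers 1, 2, 3 and 5 in each genotype. CD1d presents lipids to natural killer T (NKT) cells, so CD1d-KO mice lack these cells too, and the comparison asked which transcripts differ in macrophages without it. The methods name a CD1d-KO strain in which *Cd1d1* and *Cd1d2* are deleted (B6.129S6-Del(3Cd1d2-Cd1d1)1Sbp/J). A second line is named, in which a floxed CD1d allele was crossed to Cre driven by the ubiquitous PGK promoter. They do not say which line gave these libraries, and they call the controls of this experiment littermates. No stimulus was given. Mice were killed with CO2 and the cells were washed out with cold PBS without enzyme, and the sources used here do not give the time from lavage to lysis or say whether F4/80 beads were used for these libraries.

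Immediate early genes are transcribed within minutes of a stimulus, because the factors and kinases that switch them on are already present in the resting cell. Serum response factor with its ternary complex partners binds CArG boxes and CREB binds cAMP response elements, and the proteins made then switch on later genes until phosphatases, corepressors and RNA decay factors end the burst. Removal of cells from a tissue can itself start this programme, and these libraries cannot separate the state in the animal from a response to handling.

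The libraries held 13698864 to 19059432 expected counts on genes, the estimate of read number that RSEM gives, and 13040 genes entered the test. The deleted gene *Cd1d1* had 80 counts in the library that is labelled CD1d-KO replicate 1, against 80 to 163.2 in the WT libraries and 0 to 1 in the other 3 CD1d-KO libraries. The *Cd1d1* counts of that library go against its label, and whether the label or the CD1d-KO line used explains them was not tested. Results are also given without replicate 1. The 11 pMac markers (*Adgre1*, *Csf1r*, *Gata6* and others) summed to between 26700 and 33500 library-scaled counts (CPM, counts divided by library size) in every library. That sum leans on *Lyz2*, the largest of the 11 in every library (201100 to 292800 normalized counts). Single markers varied more, as *Gata6* from 347.2 to 779.4 and *Timd4* from 2595 to 4983 normalized counts over the 8 libraries. The 7 B cell markers were all present and summed to 211.1 to 573.1 CPM in WT and 142.6 to 981.1 in CD1d-KO libraries, whereas the 6 T and NK cell markers summed to at most 2.17 CPM and *Ncr1* was at 0. The 9 markers of small peritoneal macrophages and dendritic cells summed to 971.7 to 1950 CPM in WT and 638 to 2489 in CD1d-KO libraries. Of the other lists, the 6 neutrophil markers summed to 3.17 to 3.87 CPM in WT and 5.44 to 6.15 in CD1d-KO libraries, which did not overlap (1.96% of single genes did not). That sum was nearly all *S100a8* (44.5 to 51.6 normalized counts in WT, 81.1 to 90.1 in CD1d-KO), while *S100a9* had at most 1.05 and *Ly6g* was at 0, and its part in the results below was not tested. In bulk RNA, fewer cells of a type and less RNA per cell cannot be told apart.

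Upstream sequence is shown for *Egr2*, the only gene of the 10 with an adjusted p under 0.05 in any of the fits, and for *Nr4a1*, one of the genes with a site for the EGR proteins themselves. Both windows are the 250 bases before an annotated RefSeq start on GRCm38.p6, 5′ to 3′ on the plus strand. The *Egr2* window, chr10:67537619-67537868, lies before the start at 67537869 and after other *Egr2* starts at 67535499 and 67537566. Its capitals mark a CArG box, spelled CC, 6 bases of A or T, then GG. The *Nr4a1* window is chr15:101266596-101266845, before the start at 101266846. Its capitals mark the reverse complement of GCGNGGGCG, the sequence that EGR zinc fingers bind.
Egr2: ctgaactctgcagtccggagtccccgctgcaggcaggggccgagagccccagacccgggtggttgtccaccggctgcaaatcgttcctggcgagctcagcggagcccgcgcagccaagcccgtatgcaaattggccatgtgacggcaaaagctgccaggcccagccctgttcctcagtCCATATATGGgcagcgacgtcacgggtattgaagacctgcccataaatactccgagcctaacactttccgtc
Nr4a1: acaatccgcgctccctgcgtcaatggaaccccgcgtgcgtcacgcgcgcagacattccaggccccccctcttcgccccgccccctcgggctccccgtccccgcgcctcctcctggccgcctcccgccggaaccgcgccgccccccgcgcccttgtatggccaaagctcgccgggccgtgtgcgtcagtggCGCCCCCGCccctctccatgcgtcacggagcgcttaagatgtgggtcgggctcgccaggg

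From the RefSeq promoter table, 11 windows for 7 of the 10 genes were read. *Egr1* was left out of this search, and no window was found for *Egr3* and *Ier2*, so the counts below do not cover these genes. A CArG box was present for 1 of the 7, *Egr2*, from 72 to 63 bases before the start at 67537869, and as CCTTTTTTGG at the same distance before another start, 67537566. The box was found in 1.47% of the 32851 windows of all genes and, counted by gene, for 1.62% of 27025 genes. GCGNGGGCG was found on either strand for 2 of the 7, *Fosb* (50 to 42 bases before its start) and *Nr4a1* (60 to 52 bases), and for 5.33% of all genes (4.7% of windows). The cAMP response element TGACGTCA (1.77% of all genes) and the AP-1 site TGANTCA (7.82%) were found for none of the 7. Only these exact spellings were searched. Sites that differ by a letter, such as cgacgtca in the *Egr2* window shown, were not counted. A match describes letters in these windows and is no evidence of binding, and these windows do not hold more distant elements.

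The 10 genes spanned a wide range of levels in unstimulated pMacs. Levels are compared between genes in TPM, which divides by transcript length and then by the library total. *Atf3*, an ATF/CREB family factor known to restrain inflammatory genes in macrophages, had 319.9 ± 113.1 TPM in WT pMacs (SD, n = 4), more than 97.29% of the genes tested. *Junb*, the AP-1 subunit that often limits c-Jun, had 284.6 ± 19.6 TPM, and *Egr2*, a zinc finger factor known for its roles in myelination and in T cell anergy, had 163.8 ± 68.2 TPM. These 3 genes thus stood among the most abundant transcripts of the cells.

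*Jun*, the core AP-1 partner c-Jun, had 43.4 ± 3.93 TPM and *Ier2*, a small nuclear protein, 38.1 ± 5.52 TPM. *Nr4a1*, an orphan nuclear receptor whose reporter is widely used to read antigen receptor signalling, had 19.3 ± 4.79 TPM. Lower levels were found for *Egr1* (9.67 ± 3.61 TPM), *Egr3* (4.81 ± 1.98 TPM) and *Fos* (4.34 ± 0.736 TPM). *Fosb* was close to the limit of measurement, at 0.328 ± 0.0378 TPM and between 3 and 25 counts in the 8 libraries.

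Within each family the levels were uneven. *Egr2* exceeded *Egr1* and *Egr3*, and *Junb* exceeded *Jun*, in all 8 libraries. *Fos* and *Fosb*, whose proteins need a JUN protein to bind DNA, were the least abundant of the AP-1 genes among the 10. This did not hold for the whole FOS family. *Fosl2*, outside the 10, had a WT mean of 5836 normalized counts, against 66.9 for *Fos* and 4841 for *Junb*. Neighbours in the order of the 10 genes whose ranges over the WT libraries did not touch were *Junb* and *Egr2*, *Egr2* and *Jun*, *Ier2* and *Nr4a1*, and *Fos* and *Fosb*. The ranges overlapped for *Atf3* and *Junb*, *Jun* and *Ier2*, *Nr4a1* and *Egr1*, *Egr1* and *Egr3*, and *Egr3* and *Fos*, although *Nr4a1* was above *Egr1* and *Egr1* above *Egr3* within each of the 8 libraries. The order of mean TPM was nearly the same in CD1d-KO pMacs, where *Junb* (288.1) was above *Atf3* (259.8) and *Fos* (6.55) above *Egr3* (4.12). For *Fos* and *Fosb* the length that RSEM used varied 1.62-fold and 3.62-fold between libraries, so their TPM values also depend on how reads were divided among isoforms.

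**Figure D1:**
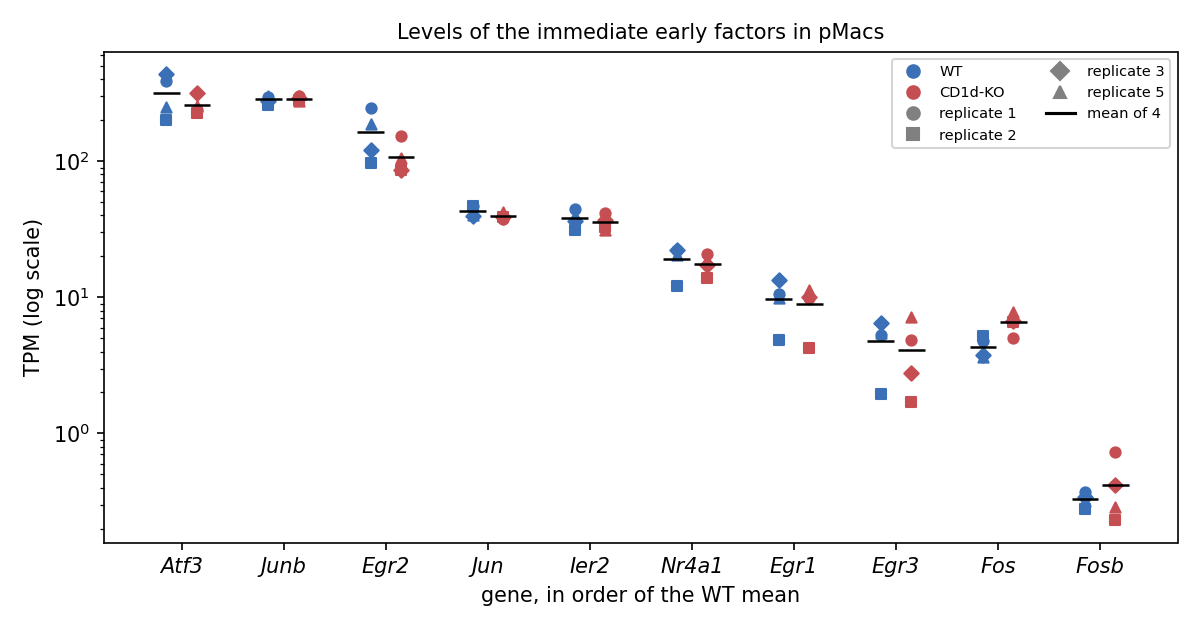
TPM (log axis) of the 10 genes in each of the 4 WT (blue) and 4 CD1d-KO (red) libraries, with the marker shape giving the replicate number and the bar the mean of 4. WT means run from 319.9 for *Atf3* to 0.328 for *Fosb*, and the genotypes overlap for every gene.

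Between the genotypes, none of the immediate early factors passed the threshold. With the quasi-likelihood test of edgeR, paired by replicate number, calls required more than 1.5-fold and an adjusted p under 0.01. Of the 10 genes, 9 passed the filter on low counts and 0 were called, against 0.0383% of all genes tested. Of the 9, 7 were lower and 2 higher in CD1d-KO pMacs, and 1 had an unadjusted p under 0.05 (*Egr2*), against 12.4% of all genes. DESeq2 also called 0 (background 0.795%) and gave 1 gene, *Egr2*, an adjusted p under 0.05 (background 2.16%). The median log2 fold change of the 9 was -0.12, beside 0.0047 over all genes. The WT and CD1d-KO values overlapped for all 10 genes, whereas they did not overlap for 1.96% of all genes.

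*Egr2* (ENSMUSG00000037868, GRCm38 chromosome 10 from 67535475 to 67542188) had the largest log2 difference of the 9 genes that passed the filter. Counts below are normalized, that is, scaled to the mean library size. *Egr2* had 5908, 2876, 3609 and 4971 in WT replicates 1, 2, 3 and 5 and 3758, 2431, 2733 and 2612 in the CD1d-KO replicates of the same numbers. The CD1d-KO library was lower in 4 of 4 pairs, as for 10.1% of all genes, and the groups overlapped because WT replicate 2 was below CD1d-KO replicate 1. The means were 4341 ± 1358 and 2883 ± 596 (SD, n = 4 each), and the log2 fold change was -0.56 (SE 0.11, unadjusted p = 0.00138, adjusted p = 0.115 by edgeR with Benjamini-Hochberg adjustment). DESeq2 gave an adjusted p of 0.00120 at the same fold change, which is below 1.5-fold. Without replicate 1, the log2 fold change was -0.52 (SE 0.14, adjusted p = 0.316, edgeR), and it was -0.59 with an adjusted p of 0.997 when edgeR was run without the pairing.

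The other EGR factors were also lower on average, by smaller amounts that did not pass the threshold. *Egr1* (ENSMUSG00000038418), the family member most often used as a readout of ERK signalling, had normalized counts of 282.5, 153.7, 442.2 and 306.8 in WT and 268.4, 143.0, 344.2 and 319.9 in CD1d-KO replicates 1, 2, 3 and 5. Its levels followed the replicate number more than the genotype, and its log2 fold change was -0.12 (SE 0.10, adjusted p = 0.671, edgeR). The value was -0.03 without replicate 3, -0.18 without replicate 5 and -0.14 without replicate 1. *Egr3* (ENSMUSG00000033730, chromosome 14 from 70077203 to 70082614) is a target of other EGR factors in several cell types. Its counts were low, with 61.4, 27.9, 91.3 and 72.7 in WT and 57.6, 24.02, 41.1 and 89.0 in CD1d-KO libraries, and the difference of -0.27 on the log2 scale (SE 0.26, adjusted p = 0.736, edgeR) was largest in pair 3. The log2 fold change was 0.02 without that pair, -0.49 without replicate 5 and -0.34 without replicate 1. Whether the difference of *Egr2* itself differs from those of *Egr1* and *Egr3* was not tested.

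Among the AP-1 genes, *Fos* was higher and *Jun* and *Atf3* were lower on average, and none of the 3 passed the threshold. *Fos* (ENSMUSG00000021250, chromosome 12 from 85473890 to 85477273) had 65.2, 84.9, 64.9 and 52.7 normalized counts in WT and 69.8, 91.5, 119.8 and 73.7 in CD1d-KO replicates 1, 2, 3 and 5. The CD1d-KO library was higher in 4 of 4 pairs, as for 10.6% of all genes, with log2 ratios of 0.09, 0.11, 0.87 and 0.47. The log2 fold change was 0.39 (SE 0.19, adjusted p = 0.455, edgeR), and 0.49 without replicate 1 (adjusted p = 0.558, edgeR). Without replicate 3, the pair with the largest ratio, it was 0.22. *Fosb* (ENSMUSG00000003545, chromosome 7 from 19302696 to 19310051) did not pass the filter. Its counts were 15, 4, 3 and 6 in WT and 25, 4, 5 and 9 in CD1d-KO libraries, which puts the normalized value higher in 4 of 4 pairs at a depth where counting error is large. Fitted without the filter, its log2 fold change was 0.57 (SE 0.56, adjusted p = 0.932, edgeR).

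*Jun* (ENSMUSG00000052684, chromosome 4 from 95049034 to 95052222) had 1256, 1556, 1284 and 1264 normalized counts in WT and 1027, 1272, 1342 and 1233 in CD1d-KO libraries. It varied little and was lower in 3 of 4 pairs, with a log2 fold change of -0.14 (SE 0.08, adjusted p = 0.541, edgeR). The value was -0.09 without replicate 1 and also without replicate 2, and -0.21 without replicate 3. *Junb* (ENSMUSG00000052837, chromosome 8 from 84974484 to 84978718) was the steadiest of the genes, at 4412, 4783, 5002 and 5168 in WT and 4547, 5128, 5541 and 4398 in CD1d-KO libraries. Its log2 fold change was 0.01 (SE 0.08, adjusted p = 0.965, edgeR), with the CD1d-KO library higher in pairs 1, 2 and 3 and lower in pair 5, and it was also 0.01 without replicate 1. In the annotation, *Jun* overlaps *Junos* and *Junb* overlaps *Prdx2* on the opposite strand, and the sources used here do not say whether reads were counted by strand.

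*Atf3* (ENSMUSG00000026628, chromosome 1 from 191170296 to 191218039) had 5600, 3560, 7051 and 4100 normalized counts in WT and 3482, 3950, 6027 and 3595 in CD1d-KO libraries. The pairs did not move together. The CD1d-KO library was lower in pairs 1, 3 and 5 and higher in pair 2, and the log2 fold change was -0.24 (SE 0.13, adjusted p = 0.492, edgeR). The difference was largest in pair 1, which holds the doubted library, and without it the value was -0.09 (adjusted p = 0.851, edgeR). Without replicate 2 it was -0.36.

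*Ier2* (ENSMUSG00000053560, chromosome 8 from 84661331 to 84662852) had 554.5, 486.8, 550.3 and 576.6 normalized counts in WT and 533.0, 497.6, 596.8 and 416.6 in CD1d-KO libraries. It was lower in 2 pairs and higher in 2, with a log2 fold change of -0.09 (SE 0.10, adjusted p = 0.778, edgeR) that was 0.03 without pair 5, -0.16 without pair 3 and -0.11 without pair 1. *Nr4a1* (ENSMUSG00000023034, chromosome 15 from 101254269 to 101274795) had 458.6, 312.7, 556.3 and 492.3 in WT and 437.5, 348.9, 460.5 and 422.1 in CD1d-KO libraries. Replicate 2 was the lowest of both genotypes, and the log2 fold change was -0.10 (SE 0.09, adjusted p = 0.707, edgeR). It was -0.18 without replicate 2, -0.05 without replicate 3, -0.07 without replicate 5 and -0.12 without replicate 1. Over the 9 tested genes, without replicate 1, 0 were called, 7 were lower and 2 higher, and the median log2 fold change was -0.11.

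**Figure D2:**
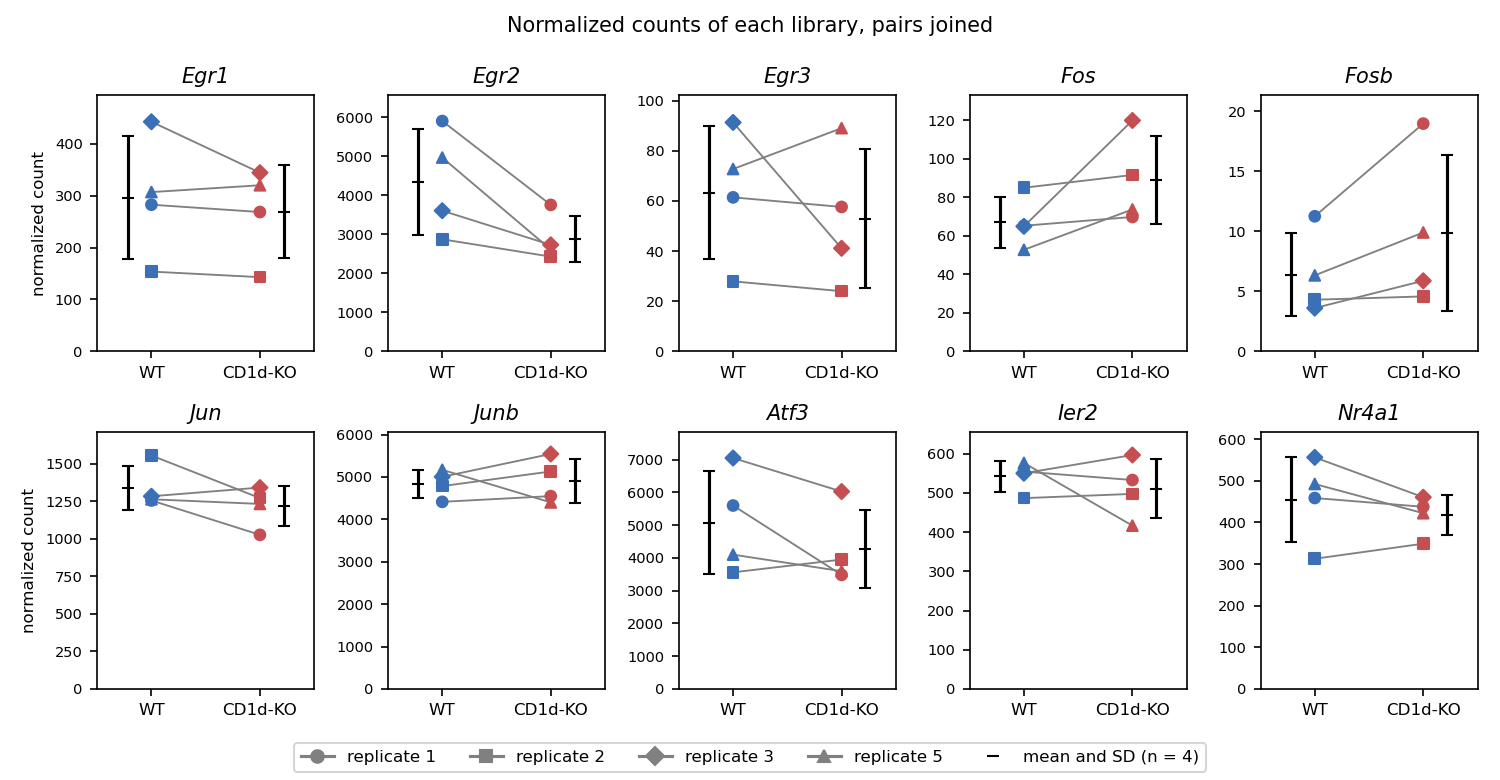
Normalized counts (linear axes from 0) of each gene in WT (blue) and CD1d-KO (red) libraries, with lines joining libraries of the same replicate number and bars giving mean and SD (n = 4). All 4 lines slope down for *Egr2* and up for *Fos* and *Fosb*, and for every gene the ranges of the genotypes overlap.

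The replicate number accounted for more of the variation of these genes than the genotype did. The sum of squares of log2 CPM over the 8 libraries was split among replicate number, genotype and what neither took. The median shares over the 9 tested genes were 56.6%, 9.23% and 15.95%, beside 64.8%, 7.14% and 21.15% over all genes tested. Replicate number holds 3 of the 7 degrees of freedom (42.9%) and genotype 1 (14.3%). The immediate early genes followed the replicate number to a share near that of other genes, and their SD over the libraries (median 0.35 on the log2 scale) was above the median of all genes (0.26). Without replicate 1 the replicate share of the 9 was 40.0% and the genotype share 5.31%. With a pair left out, replicate number holds a smaller share of the degrees of freedom and genotype a larger one. These values can therefore not be set against 42.9% and 14.3%, and a replicate share above its degrees of freedom is not shown without replicate 1.

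The genes differed in this respect. The replicate share was 96.6% for *Egr1*, 84.6% for *Nr4a1*, 79.96% for *Egr3* and 73.8% for *Atf3*, and it was lowest for *Ier2* (38.3%). The genotype share was highest for *Egr2* (41.3%) and *Fos* (33.4%). For *Junb*, 43.0% was taken by neither, over a small total spread.

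The mean of a WT and CD1d-KO pair, as log2 CPM minus the mean of the 8 libraries, shows which pairs were high or low, but not which mouse of a pair. *Egr1*, *Egr2*, *Egr3*, *Atf3* and *Nr4a1* were lowest in pair 2, where *Egr1* stood at -0.83, *Egr3* at -0.97 and *Nr4a1* at -0.38. Pair 3 was the highest for 6 of the 9, *Egr1* (0.55), *Atf3* (0.53), *Nr4a1* (0.23), *Fos* (0.22), *Ier2* (0.13) and *Junb* (0.12). *Fos* and *Jun* were not low in pair 2, at 0.22 and 0.15, and *Egr2* was highest in pair 1, at 0.45.

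Markers of B cells also varied by pair. Their median was -1.34 in pair 2 and 0.86 in pair 5, and their summed level was 211.1 and 142.6 CPM in the WT and CD1d-KO libraries of replicate 2, against 399.6 to 981.1 CPM in the other 6 libraries. All 7 B cell markers were present, and B cells also transcribe EGR and NR4A genes. The summed markers of small peritoneal macrophages and dendritic cells were also lowest in replicate 2, at 971.7 CPM in WT and 638 in CD1d-KO. WT replicate 1 was close, at 975.4 CPM. That sum leans on *Cd74*, the largest of the 9 in every library, and the single markers disagreed. *Irf4* and *Mrc1* were lowest in replicate 2 of both genotypes, whereas *Cd209a* was lowest in replicate 1 of both (62.2 and 75.8 normalized counts). *Ccr2* and *Itgax* were lowest in replicate 1 in WT and in replicate 2 in CD1d-KO. The part of B cells, small peritoneal macrophages and dendritic cells in the low values of *Egr1*, *Egr3* and *Nr4a1* in pair 2 was not tested. Early inflammatory genes followed another order, with medians of -0.79, 0.32, 0.64 and -0.16 in pairs 1, 2, 3 and 5, and they too were highest in pair 3. The 22 kinases and factors that act upstream of the immediate early genes did not share a direction by pair. Their medians lay between -0.02 and 0.03, while single genes varied, as *Map2k1* from 1684 to 4192 and *Crem* from 165.6 to 403.0 normalized counts.

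Heat shock genes, which rise when cells are stressed during handling, were examined for differences in handling between the libraries. Their medians by pair ran from -0.12 to 0.14, with the highest value in pair 2 and the lowest in pair 3. The 14 genes summed to 4231, 5189, 4777 and 4855 CPM in WT and 4012, 5719, 5166 and 4901 CPM in CD1d-KO replicates 1, 2, 3 and 5, so that the groups overlapped. By this sum, replicate 1 was the lowest of both genotypes. The sum leans on *Hspa5*, the largest of the 14 in every library, which was lowest in replicate 1 (22840 and 23710 normalized counts in WT and CD1d-KO). Gene by gene, the pair mean was lowest in pair 3 for 8 of the 14 and in pair 1 for 5. No record of handling was used here, and the part of handling in these levels was not tested.

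**Figure D3:**
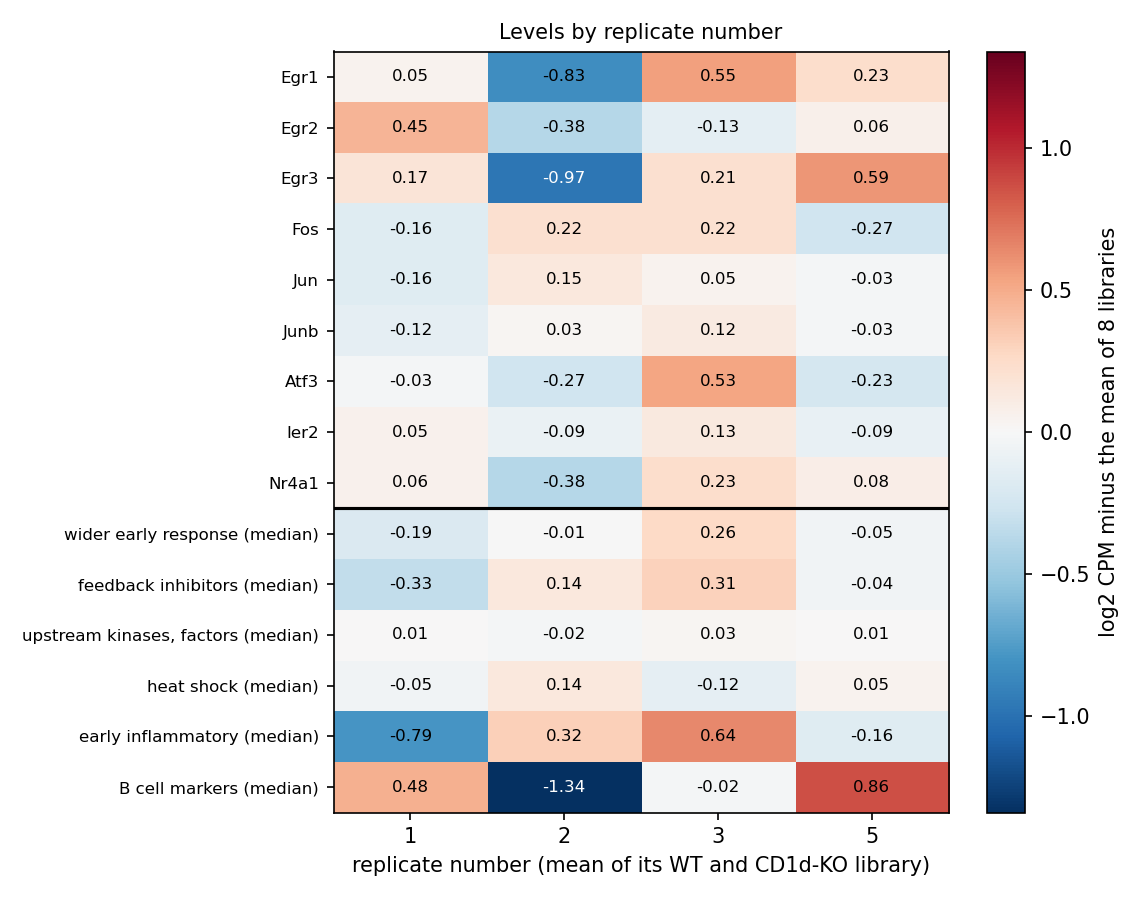
Mean level of each replicate number (columns) as log2 CPM minus the mean of 8 libraries, for the 9 tested genes and, under the line, for the median of 6 gene lists. *Egr1* (-0.83) and *Egr3* (-0.97) are low in pair 2, where the B cell markers are at -1.34, and the early inflammatory genes range from -0.79 in pair 1 to 0.64 in pair 3.

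The genes around these 10 in the same pathway were described by lists. Of 35 wider early response genes, 33 were tested and 0 were called, with 16 higher and 17 lower and a median log2 fold change of -0.01. At an unadjusted p under 0.05, 6 were higher and 5 lower, where 7.35% of all genes were higher and 5.01% lower. The 5 with the lowest p were *Csrnp1*, a nuclear factor induced by AXIN (log2 fold change 0.36), the kinase *Plk3* (-0.40), the helix-loop-helix inhibitor *Id2* (0.32), *Ppp1r15a*, which ends the integrated stress response (0.32), and the interferon factor *Irf1* (0.41). Their adjusted p-values ran from 0.132 to 0.233 (edgeR, Benjamini-Hochberg). Without replicate 1, 0 were called and at the unadjusted threshold 5 were higher and 2 lower.

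Of 17 feedback inhibitors, which shut the response down, 16 were tested and 0 were called, with 7 higher and 9 lower. At an unadjusted p under 0.05, 3 were higher (7.35% of all genes were) and 3 lower (5.01%), and without replicate 1 these counts were 3 and 2. The median was -0.08, and 0.06 without replicate 3. *Dusp6*, the phosphatase of ERK, had 487.8, 379.4, 455.4 and 443.8 normalized counts in WT and 405.6, 232.2, 247.9 and 324.3 in CD1d-KO replicates 1, 2, 3 and 5. It was lower in 4 of 4 pairs, as for 10.1% of all genes (log2 fold change -0.56, SE 0.11, adjusted p = 0.108 from edgeR and 0.0205 from DESeq2). *Dusp1*, the phosphatase of p38 and JNK, had 639.2, 987.6, 1164 and 663.1 in WT and 721.0, 1443, 1517 and 1043 in CD1d-KO libraries. It was higher in 4 of 4 pairs, as for 10.6% of all genes (log2 fold change 0.44, SE 0.09, adjusted p = 0.113 from edgeR and 0.0172 from DESeq2).

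Further inhibitors stood out less. *Socs3*, the inhibitor of cytokine receptor kinases (0.32, adjusted p = 0.148 from edgeR and 0.0469 from DESeq2), and *Zfp36l1*, an RNA decay factor (0.35, adjusted p = 0.172, edgeR), were higher in 4 of 4 pairs, as for 10.6% of all genes. *Nab2*, the corepressor that binds EGR1, EGR2 and EGR3 and is itself an EGR target, had 1526, 1420, 1395 and 1371 normalized counts in WT and 1340, 1348, 1086 and 952.0 in CD1d-KO libraries. These ranges did not touch, as for 1.96% of all genes, and the log2 fold change was -0.29 (SE 0.09, adjusted p = 0.230, edgeR).

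Of the 22 upstream kinases and factors, 22 were tested and 0 were called. At an unadjusted p under 0.05, 1 was higher (*Atf1*, a CREB relative, 0.21) and 1 lower (the ERK-activated kinase *Rps6ka1*, -0.27). Over all genes, 7.35% were higher and 5.01% lower at this threshold. Next in order of p were the ERK-activating kinase *Map2k1* (0.17), the CREB relative *Crem* (0.24) and the kinase *Rps6ka3* (-0.14), with edgeR adjusted p-values from 0.212 to 0.468 over these 5 genes. The median of the 22 was -0.0014. The 14 heat shock genes were all tested and 0 were called. An unadjusted p under 0.05 in either direction was found for 0 of them, against 12.4% of all genes. Their median was -0.11, and it was -0.03 without replicate 1 and -0.20 without replicate 2. The chaperone of the endoplasmic reticulum *Hspa5* (0.18) had the lowest p, followed by *Hsp90aa1* (-0.15), *Hsph1* (-0.17), *Hspd1* (-0.13) and *Hsp90ab1* (-0.14), with edgeR adjusted p-values from 0.414 to 0.602.

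The 16 early inflammatory genes, many of them targets of AP-1 and NF-κB, were all tested and 0 were called. At an unadjusted p under 0.05, 5 were higher (7.35% of all genes were) and 0 lower (5.01%), and the median was 0.03. Without replicate 1 these counts were 5 and 2, and without replicate 5 the median was 0.13. *Cxcl1*, a neutrophil chemokine, had 907.4, 2387, 2324 and 1164 normalized counts in WT and 2003, 3870, 4034 and 2562 in CD1d-KO replicates 1, 2, 3 and 5. It was higher in 4 of 4 pairs, with a log2 fold change of 0.94 (SE 0.10) and an adjusted p of 0.0161 by edgeR, which missed the threshold, and of 2.9e-13 by DESeq2, which called it. The activation marker *Cd83* (0.51), the interferon-induced chemokine *Cxcl10* (1.66), the early activation antigen *Cd69* (0.71) and the prostaglandin synthase *Ptgs2* (0.32) were also higher in 4 of 4 pairs (10.6% of all genes were), with edgeR adjusted p-values from 0.167 to 0.211. The genes named from each list have its lowest p in a paired test, a choice that favours pairs of 1 direction. *Cxcl10* ranged from 101.2 to 9382 normalized counts among the WT libraries alone.

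**Figure D4:**
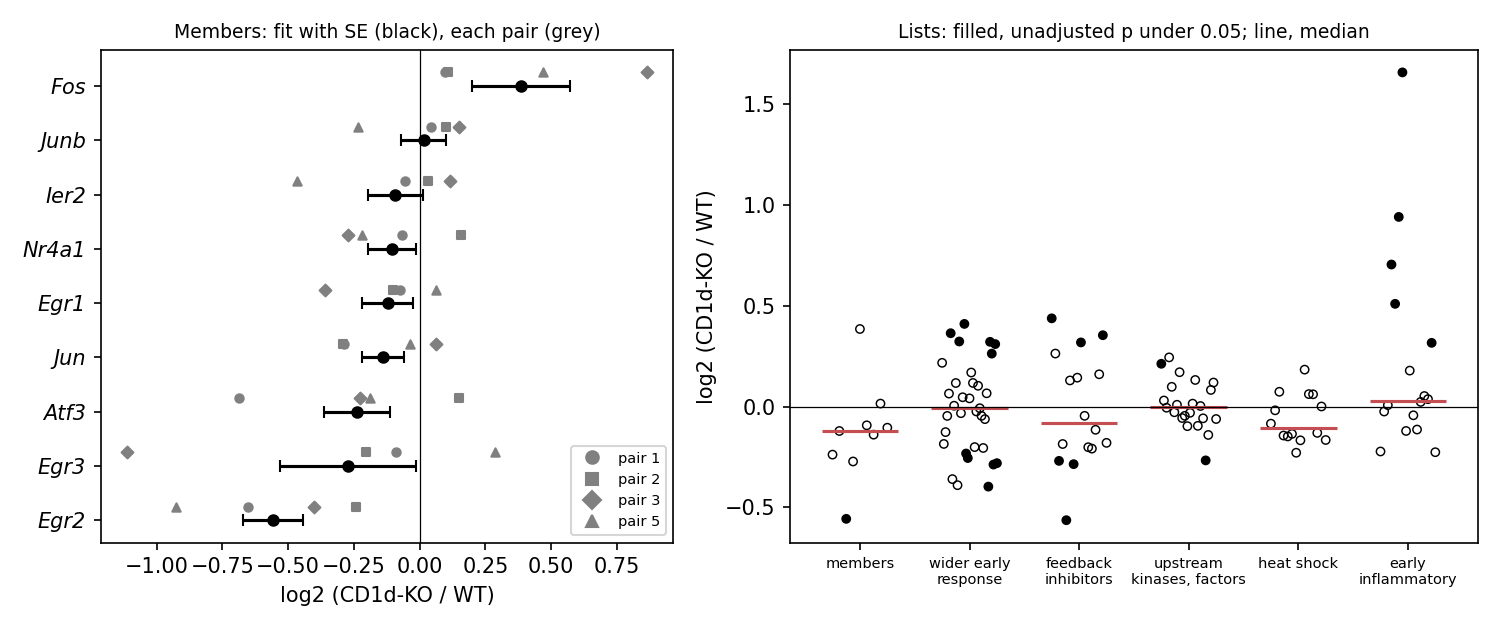
Log2 fold changes of CD1d-KO over WT. Left, the edgeR fit with its SE (black) and each pair's log2 ratio (grey) for the 9 tested genes, from -0.56 for *Egr2* to 0.39 for *Fos*. Right, every tested gene of the members and of 5 lists, filled at an unadjusted p under 0.05, with the median as a line, between -0.12 and 0.03.

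Genes with the pattern most like that of the factors were ranked by Pearson's r over the 8 libraries between their log2 CPM and the mean of the standardized log2 CPM of the 10 genes. Of 9934 genes with a mean of at least 50 normalized counts, 13 had an r above 0.9. The 10 highest were *Lrrc58* (0.967), *Arsb* (0.958), *Stx4a* (0.945), *Nav2* (0.944), *Luzp1* (0.927), *Snhg8* (0.913), *Plau* (0.912), *Rps6ka3* (0.912), *Ext1* (0.911) and *Ppp1r3b* (0.908). With 8 libraries that share their scaling and their pairs, and so many genes compared, these values are a description only.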

How the data were processed

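Polyadenylated RNA of 8 pMac libraries (4 WT, 4 CD1d-KO) was sequenced. The authors trimmed reads with cutadapt, aligned them to GRCm38 with STAR 2.5.2a and quantified genes with RSEM 1.3.0, and deposited expected counts, which are not normalized and divide reads that match several genes. The deposited TPM values were computed by the authors with RSEM, which divides by effective transcript length and scales each library to one total. The strand setting is not given in the sources used here.

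Here, expected counts were rounded, scaled by TMM and tested in edgeR 4.0.16 (R 4.3.3) with the quasi-likelihood test, with genotype and replicate number as covariates, after filterByExpr. P-values were adjusted by Benjamini-Hochberg over 13040 genes, with calls made above 1.5-fold at an adjusted p under 0.01, following the methods of the study with edgeR in place of DESeq2. Log2 CPM used a prior count of 2. The replicate block follows the methods of the study, and in a check of the pairing deviations from the genotype means correlated within each number (r = 0.487, 0.388, 0.505 and 0.207 for replicates 1, 2, 3 and 5), although replicate 5 reached 0.22 with another number. No pair of libraries agreed within sampling noise. The gene lists and the 10 genes were chosen with earlier results of these data known. All 10 genes are named, and of each list the genes called and the 5 with the lowest unadjusted p. Alternatives were other scalings and filters, DESeq2 1.42.0, limma 3.58.1 on log2(TPM + 1), no block, and leaving out each replicate. The scripts were tested on simulated data. Promoter windows were from RefSeq. GENCODE M21 held 99.26% of the gene IDs.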

Additional observations from a re-analysis of the deposited data

Results flagged for a closer look

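Of 20 groups of 4 values (10 genes in 2 genotypes), 1 held a library apart from the others, where chance gives about 1 in 20. *Jun* in WT replicate 2 had 1556 normalized counts, and the other WT libraries had 1256 to 1284, so that the gap took 0.905 of the range, above Dixon's 95% critical value. The log2 fold change of *Jun* was -0.14 over all pairs and -0.09 without replicate 2.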

How the results depend on the processing

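None of the 9 genes that passed the filter was called under any of the 12 alternatives, and *Fosb* was fitted under 2 of them (no filter and DESeq2) and not called. Of 108 values of the 9 tested genes under these alternatives, 104 kept their direction and 4 did not: *Egr3* without replicate 3 (0.0189), *Junb* without replicate 2 (-0.01) and without replicate 3 (-0.0288), and *Ier2* without replicate 5 (0.0288). The log2 fold change of *Egr2* ran from -0.75 to -0.43 and its adjusted p from 0.00069 with no filter on counts to 0.997 without the replicate block, and that of *Fos* from 0.22 to 0.50. When each replicate was left out, the log2 fold change of *Egr3* ran from -0.49 to 0.0189, of *Junb* from -0.0288 to 0.10 and of *Ier2* from -0.16 to 0.0288. The median over the members ran from -0.17 to -0.05. Without the replicate block, 3 genes in all were called and no member changed its call. The number of all genes called was 5 in the main test, 236 with no filter on counts, 104 with DESeq2, 3 with limma, 53 at an adjusted p under 0.05 with no fold threshold, and 3 to 22 when each replicate was left out (22 without replicate 2). Early inflammatory genes called numbered 2 with no filter, 1 with DESeq2, 1 at an adjusted p under 0.05 and 0 to 1 when each replicate was left out, against 0; for this list and the feedback, upstream and heat shock lists the alternatives were added after the data were seen. The median share of the sum of squares by replicate number ran from 36.2% to 73.7% when each replicate was left out, that by genotype from 5.31% to 19.6% and that by neither from 11.8% to 19.8%, and log2(TPM + 1) gave 20.4% for neither. The cause of these shifts was not tested, and leaving out a pair also changes the share of the degrees of freedom that each term holds. With 4 pairs, differences of about the SE of each gene are not detectable, and the counts of *Fosb* and *Egr3* are too low for small differences to show.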
